A study of Homo sapiens with 6 samples.

Results

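Chromatin accessibility was examined at 8 genes for histone methyltransferases and their partners, in cells with knockdown of 1 of them, NSD2. They were NSD2, NSD1, NSD3, SETD2 and ASH1L, whose products methylate lysine 36 of histone H3, and EZH2, EED and SUZ12, the core of polycomb repressive complex 2 (PRC2), which methylates lysine 27. ATAC-seq, in which a transposase cuts and tags open DNA, had been done on 3 B-lineage acute lymphoblastic leukaemia cell lines, RS4;11, SEM and RCH (taken as the RCH-ACV line of the growth protocol). Each line carried either sh2, the NSD2 knockdown, or NT, the non-targeted control, which gave 6 samples with 2 peak lists each, called libraries 1 and 2 by the number in the names of their peaks. The labels name 1 hairpin and give no time point or delivery. Whether the 2 libraries of a sample are from separate cultures is not said, and their spread may be technical. The series' title is about a relapse-associated NSD2 mutation, and the labels do not say which lines carry it. A window was set on the hg19 build around each gene, at 1.86 to 2 Mb of chromosome 4 for NSD2, 176.55 to 176.74 Mb of chromosome 5 for NSD1, 38.12 to 38.25 Mb of chromosome 8 for NSD3, 47.05 to 47.22 Mb of chromosome 3 for SETD2, 155.3 to 155.54 Mb of chromosome 1 for ASH1L, 148.49 to 148.59 Mb of chromosome 7 for EZH2, 85.95 to 86 Mb of chromosome 11 for EED and 30.25 to 30.34 Mb of chromosome 17 for SUZ12. These windows took in 271 of the 718792 peaks, which merged into 35 of 130872 regions. The lists held 41594 to 84794 peaks, and read depth is unknown. No expression was measured, so the knockdown of NSD2 itself was not checked here.

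NSD2 places the mono- and dimethyl marks of lysine 36, mostly between genes and over gene bodies. NSD1 and NSD3 are its paralogues, SETD2 places the trimethyl mark behind elongating RNA polymerase II, and ASH1L, a trithorax group protein, methylates lysine 36 at developmental genes. EZH2 is the catalytic subunit of PRC2, EED binds the mark that the complex makes and stimulates it, and SUZ12 holds the complex together. Methylation of lysine 36 on a histone tail hinders PRC2 on the same tail, so a gain of NSD2 activity is known to spread lysine 36 methylation at the expense of lysine 27 trimethylation. The RS4;11 and SEM lines bear a KMT2A-AFF1 fusion.

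Sequence upstream of the starts was read from a RefSeq table of build GRCh38.p14, which matched 7 of the 8 genes, all but NSD3, with 12 starts. Because that build differs from the peaks' build, these sequences were not placed on the peaks. NSD2, the knockdown target, and the 3 PRC2 genes are shown, each as the 250 bases before the first listed start, because they span the range of base composition among the members. Capitals mark the CCAAT box, bound by NF-Y, and the E2F core TTCCCGC, on either strand.
NSD2: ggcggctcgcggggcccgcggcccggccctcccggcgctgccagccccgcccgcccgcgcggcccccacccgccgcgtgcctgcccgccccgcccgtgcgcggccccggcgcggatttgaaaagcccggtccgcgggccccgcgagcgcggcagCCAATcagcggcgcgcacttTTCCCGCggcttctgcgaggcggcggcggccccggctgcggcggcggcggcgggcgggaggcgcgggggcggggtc
EZH2: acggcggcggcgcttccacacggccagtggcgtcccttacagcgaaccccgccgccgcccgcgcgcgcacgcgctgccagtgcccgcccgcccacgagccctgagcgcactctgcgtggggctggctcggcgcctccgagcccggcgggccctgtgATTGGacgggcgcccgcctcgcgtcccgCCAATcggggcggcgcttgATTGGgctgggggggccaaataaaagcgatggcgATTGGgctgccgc
EED: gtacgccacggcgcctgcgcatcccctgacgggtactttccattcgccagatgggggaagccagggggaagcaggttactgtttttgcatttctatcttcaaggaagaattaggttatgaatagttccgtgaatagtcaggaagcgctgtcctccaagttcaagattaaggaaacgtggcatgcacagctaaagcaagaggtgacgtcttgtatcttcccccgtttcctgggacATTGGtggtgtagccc
SUZ12: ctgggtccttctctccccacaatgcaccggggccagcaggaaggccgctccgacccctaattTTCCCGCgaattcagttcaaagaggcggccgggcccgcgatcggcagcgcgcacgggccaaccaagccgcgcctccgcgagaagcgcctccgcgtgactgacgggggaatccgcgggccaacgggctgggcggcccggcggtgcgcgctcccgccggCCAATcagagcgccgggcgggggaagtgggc

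The NSD2 stretch was 86% G and C with 50 CpG dinucleotides, more than in 99.9% of the 35114 promoters of the table. EED had the lowest G and C content of the 12 starts, with 51.2% G and C and 11 CpGs, while EZH2 had 75.6% and 38 CpGs and SUZ12 72.8% and 34 CpGs. Over the 12 starts the median was 75.2% G and C, against 58% over all promoters. A CCAAT box stood at 6 of the 12 starts and in 32.0% of all promoters, and the first EZH2 start held 4. The GC box GGGCGG, bound by Sp and KLF factors, stood at 11 of the 12 starts and in 42.6% of all promoters. NSD1 had 5 of the 12 starts and EZH2 2, so the starts are not independent promoters. The E2F core was found at 2 starts, those of NSD2 and SUZ12, and in 5.52% of all promoters, the ETS core CGGAAG at 0 and in 16.5%, and the E-box CACGTG at 1, an NSD1 start, and in 6.35%. The motifs were chosen after the sequences were seen, both strands were searched, and a match is a description of these letters only.

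Every window held at least 1 region with a peak in all 12 lists. Counted over the windows, 16 of the 35 regions (45.7%) were open in all 12 lists, against 16.5% of all regions. The count rests on an overlap of at least 1 bp. Where a list had to cover 50% of the region, 8 of 35 (22.9%) were open in all 12 lists, against 8.56% of all regions, and among peaks above a fold of 6.37, 9 of 21 (42.9%) were, against 16.5%. Another 10 were open in 2 to 11 lists, and 9 had a peak in 1 list only, while 28.3% of all regions had one in 1 list only. Regions open in 1 line only numbered 15 of 35 (42.9%), against 44.7% of all regions. The lysine 36 genes had 12 of 25 regions open throughout (48%), and the PRC2 genes 4 of 10 (40%). NSD1 and NSD3 had 4 such regions each, SETD2 and SUZ12 had 2 each, and NSD2, ASH1L, EZH2 and EED had 1 each. NSD3 had the densest window, with 3.78 peaks per 100 kb in an average list, and ASH1L the sparsest, with 0.625. Of a list's peaks in the windows, 66.7% to 91.3% (median 80.5%) fell in regions open in all 12 lists, against 28.0% to 57.1% (median 40.7%) of all its peaks. The windows were drawn around genes, whereas the set of all regions was not.

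**Figure D1:**
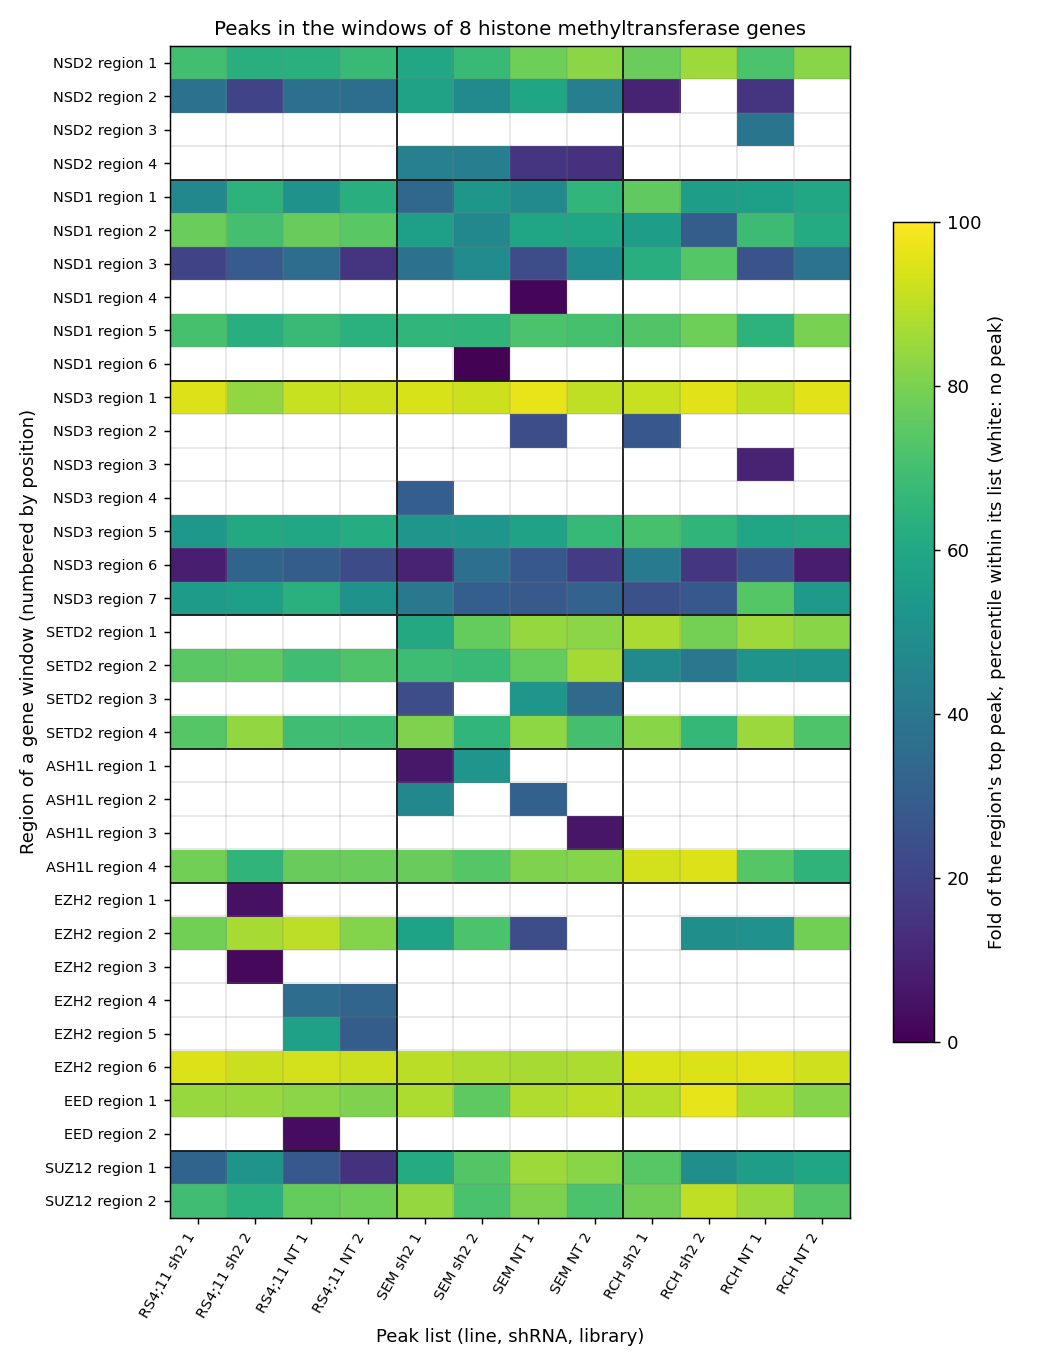
Peaks by region (rows, named by window and numbered by position) and list (columns, sh2 left of NT in each line), coloured by the percentile of the highest fold within its list (white, no peak). By an overlap of at least 1 bp, 16 of the 35 regions are filled in all 12 columns, and 9 in 1 column only.

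Regions open in all 12 lists were 475 to 1855 bp wide and the other regions of the windows 200 to 772 bp, ranges that overlap. A region's width is the union of its peaks over the lists, so it can grow with the number of lists. Compared with all regions open in 12 lists, those of the windows had a median width of 1128 bp (quartiles 835 to 1318) against 837 bp (633 to 1089). Their fold enrichment, the value the authors deposited with each peak and read here as the signal over the peak caller's background (the highest where a list had several peaks in a region), ranked at a median percentile of 67.4 (56.0 to 77.1) within their lists, against 75.3 (60.9 to 87.1). They were thus wider, and lower in rank, than constitutive regions at large, a difference that was not tested. For the 7 genes with a known strand, the outermost region at the gene's start side of the window was open in all 12 lists in 7 of 7, with widths of 925 to 1855 bp, and the outermost at its end side in 1 of 7, SUZ12. Both counts depend on where the windows were cut, and the same shares over other genes were not computed. At NSD1 the end side count rests on a peak in 1 list, at percentile 0.628. That peak crosses the border beside region 5, open in all 12 lists. The peaks were not placed on an hg19 annotation, so whether a region is promoter, exon, intron or a neighbouring gene was not assigned.

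At NSD2, the knockdown target, the region at its start side was open in every library. NSD2 region 1, chr4:1872101-1873658, had folds of 9.62 and 8.54 in sh2 and 8.31 and 8.96 in NT RS4;11, 7.22 and 8.20 in sh2 and 9.23 and 9.98 in NT SEM, and 8.07 and 9.34 in sh2 and 8.24 and 9.78 in NT RCH. The sh2 and NT folds overlapped in RS4;11 and RCH, and both SEM sh2 folds lay below both SEM NT folds. Folds are not normalized between libraries, so such differences show no change in level, here and in the windows below. With 2 libraries each, conditions can separate without a change, and the share of all regions that do was not counted. The median fold of the whole list also differed. It was 7.10 and 7.04 in sh2 and 6.67 and 6.81 in NT RS4;11, and 6.42 and 6.50 in sh2 and 6.29 and 6.25 in NT SEM. In RCH it was 5.42 and 5.32 in sh2 and 6.08 and 6.11 in NT. A second region, 28.3 kb downstream at chr4:1900937-1901326, had folds of 6.04 and 4.83 in sh2 and 5.46 and 5.64 in NT RS4;11, 7.06 and 6.31 in sh2 and 6.99 and 5.81 in NT SEM, and 3.64 in sh2 and 4.20 in NT RCH, library 1 only in each case. It was thus open in both conditions of every line, and in RCH library 2 of each condition missed it. No NSD2 region was NT-only or sh2-only in any line, that is open in both libraries of 1 condition and in none of the other.

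A further NSD2 region, region 4 at chr4:1930022-1930509, lay 57.4 kb downstream and had a peak in SEM alone. Its folds were 5.90 and 5.96 in sh2 and 4.32 and 4.29 in NT SEM, and none of the 8 lists of RS4;11 and RCH held it. Both sh2 folds lay above both NT folds. Such a pattern, all 4 SEM lists and no other, was found in 0.957% of all regions. The remaining NSD2 region had a peak in 1 list, RCH NT library 1, with a fold of 5.34.

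NSD1, whose loss causes an overgrowth syndrome in people, had its 4 constitutive regions in 2 places. One, at its start side, was chr5:176560315-176561700. The other 3 lay 166 to 178 kb downstream, where the RefSeq order of genes puts RAB24, PRELID1 and MXD3 next to NSD1. The highest ranked was NSD1 region 5, chr5:176738817-176739668, with folds of 9.84 and 8.57 in sh2 and 8.94 and 8.50 in NT RS4;11, 7.88 and 7.98 in sh2 and 8.36 and 8.27 in NT SEM, and 7.44 and 8.06 in sh2 and 7.32 and 9.38 in NT RCH. It had a mean percentile of 69.6 over the 12 lists, and sh2 and NT overlapped in RS4;11 and RCH, with sh2 below NT in SEM. NSD1 region 2, chr5:176727205-176727679, had folds of 10.9 and 9.65 in sh2 and 10.7 and 10.2 in NT RS4;11, 6.91 and 6.29 in sh2 and 6.98 and 6.98 in NT SEM, and 5.79 and 4.39 in sh2 and 7.83 and 7.02 in NT RCH. The conditions overlapped in RS4;11, and sh2 lay below NT in SEM and RCH. NSD1 region 3, chr5:176730363-176730963, had folds of 4.94 and 5.36 in sh2 and 5.43 and 4.32 in NT RS4;11, 5.51 and 6.36 in sh2 and 4.76 and 6.18 in NT SEM, and 6.33 and 7.42 in sh2 and 4.68 and 5.37 in NT RCH. There sh2 lay above NT in RCH, opposite to region 2, and the conditions overlapped in RS4;11 and SEM. The start side region ranged from 5.32 to 8.71 over the lists, and its conditions overlapped in every line.

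NSD3 had the highest ranked region of all 8 windows. NSD3 region 1, chr8:38125987-38127134, had folds of 16.2 and 12.2 in sh2 and 15.0 and 15.0 in NT RS4;11, 13.5 and 12.8 in sh2 and 13.7 and 11.6 in NT SEM, and 11.0 and 12.1 in sh2 and 12.2 and 14.0 in NT RCH. The conditions overlapped in RS4;11 and SEM, and sh2 lay below NT in RCH. Its mean percentile was 92.5. It lay 5.99 kb from the lower border, on the side of PLPP5 in the RefSeq order, and the gene it belongs to was not assigned. Regions 5 and 6, chr8:38239253-38240128 and chr8:38240182-38240686, are separated by 53 bp and were called apart in all 12 lists. Region 5 had folds of 7.45 and 8.25 in sh2 and 7.84 and 8.26 in NT RS4;11, 6.60 and 6.68 in sh2 and 6.87 and 7.78 in NT SEM, and 7.18 and 6.48 in sh2 and 6.80 and 6.89 in NT RCH, with sh2 below NT in SEM and overlap in the other lines. Region 6 was the weakest constitutive region of the windows, with folds of 3.84 to 5.59, a mean percentile of 23.0 and conditions that overlapped in every line.

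NSD3 region 7, chr8:38243507-38244291, had folds of 7.59 and 7.73 in sh2 and 8.33 and 6.94 in NT RS4;11, 5.71 and 5.22 in sh2 and 5.01 and 5.13 in NT SEM, and 4.22 and 4.29 in sh2 and 8.49 and 6.38 in NT RCH. The conditions overlapped in RS4;11, and sh2 lay above NT in SEM and below it in RCH. In RCH its percentiles were 24.7 and 27.6 in sh2 and 73.6 and 53.7 in NT. The sh2 lists are shorter, and ranks from lists of unequal length are not comparable.

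The window of SETD2, the trimethylase, held a region open in SEM and RCH but not RS4;11. SETD2 region 1, chr3:47050695-47051326, had folds of 7.32 and 9.42 in sh2 and 10.2 and 9.96 in NT SEM, and 9.97 and 8.19 in sh2 and 10.8 and 9.77 in NT RCH. Both sh2 folds lay below NT in SEM, and the conditions overlapped in RCH. No RS4;11 list held it, though the RS4;11 NT lists were the longest of all. The pattern, all 8 SEM and RCH lists and no RS4;11 list, was shared by 0.355% of all regions. SETD2 region 1 sat 0.694 kb from the window's lower border, on the side of NBEAL2 in the RefSeq order. The gene it belongs to was not assigned. At the start side, SETD2 region 4, chr3:47204726-47206388, was open in all 12 lists and had the highest mean percentile of the window, 75.2. Its folds were 10.3 and 12.2 in sh2 and 9.23 and 9.29 in NT RS4;11, 10.1 and 8.02 in sh2 and 10.1 and 8.22 in NT SEM, and 8.90 and 6.61 in sh2 and 10.7 and 8.23 in NT RCH. Both RS4;11 sh2 folds lay above NT, and the conditions overlapped in SEM and RCH. SETD2 region 2, chr3:47058241-47059417, was also open throughout, with folds of 10.4 and 10.4 in sh2 and 9.28 and 9.83 in NT RS4;11, 8.28 and 8.22 in sh2 and 8.97 and 10.7 in NT SEM, and 5.31 and 4.83 in sh2 and 6.15 and 6.19 in NT RCH. Here sh2 lay above NT in RS4;11 and below it in SEM and RCH.

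ASH1L, in the largest window, had a single constitutive region, chr1:155532086-155533229, at its start side. Its folds were 11.2 and 8.87 in sh2 and 10.6 and 10.7 in NT RS4;11, 9.42 and 9.02 in sh2 and 9.65 and 9.86 in NT SEM, and 11.6 and 11.7 in sh2 and 8.54 and 7.38 in NT RCH. The conditions overlapped in RS4;11, and sh2 lay below NT in SEM and above it in RCH. In RCH the sh2 percentiles, 93.2 and 94.6, lay above those of NT, 73.8 and 65.0. The RCH sh2 lists were shorter (44244 and 41594 peaks) than the NT lists (56511 and 57088). Ranks from lists of unequal length are not comparable, and the part of list length in this difference was not tested. The other 3 ASH1L regions were open in SEM lists only.

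EZH2, the catalytic subunit of PRC2, had the widest region of the windows and 5 others that were each missing from at least 2 lists. EZH2 region 6, chr7:148580416-148582270, is 1855 bp wide and had folds of 16.2 and 14.8 in sh2 and 15.7 and 14.8 in NT RS4;11, 12 and 11.6 in sh2 and 10.8 and 10.9 in NT SEM, and 11.9 and 11.8 in sh2 and 14.3 and 12.7 in NT RCH. The conditions overlapped in RS4;11, and sh2 lay above NT in SEM and below it in RCH. Its mean percentile was 91.8. A region 45.2 kb downstream, chr7:148535869-148536434, had folds of 11.3 and 13.1 in sh2 and 14.4 and 11.7 in NT RS4;11, 7.10 and 8.77 in sh2 and 4.76 in NT SEM, and 5.32 in sh2 and 6.10 and 9.19 in NT RCH. It was missing from SEM NT library 2 and RCH sh2 library 1, that is from 1 library of a condition each time.

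**Figure D2:**
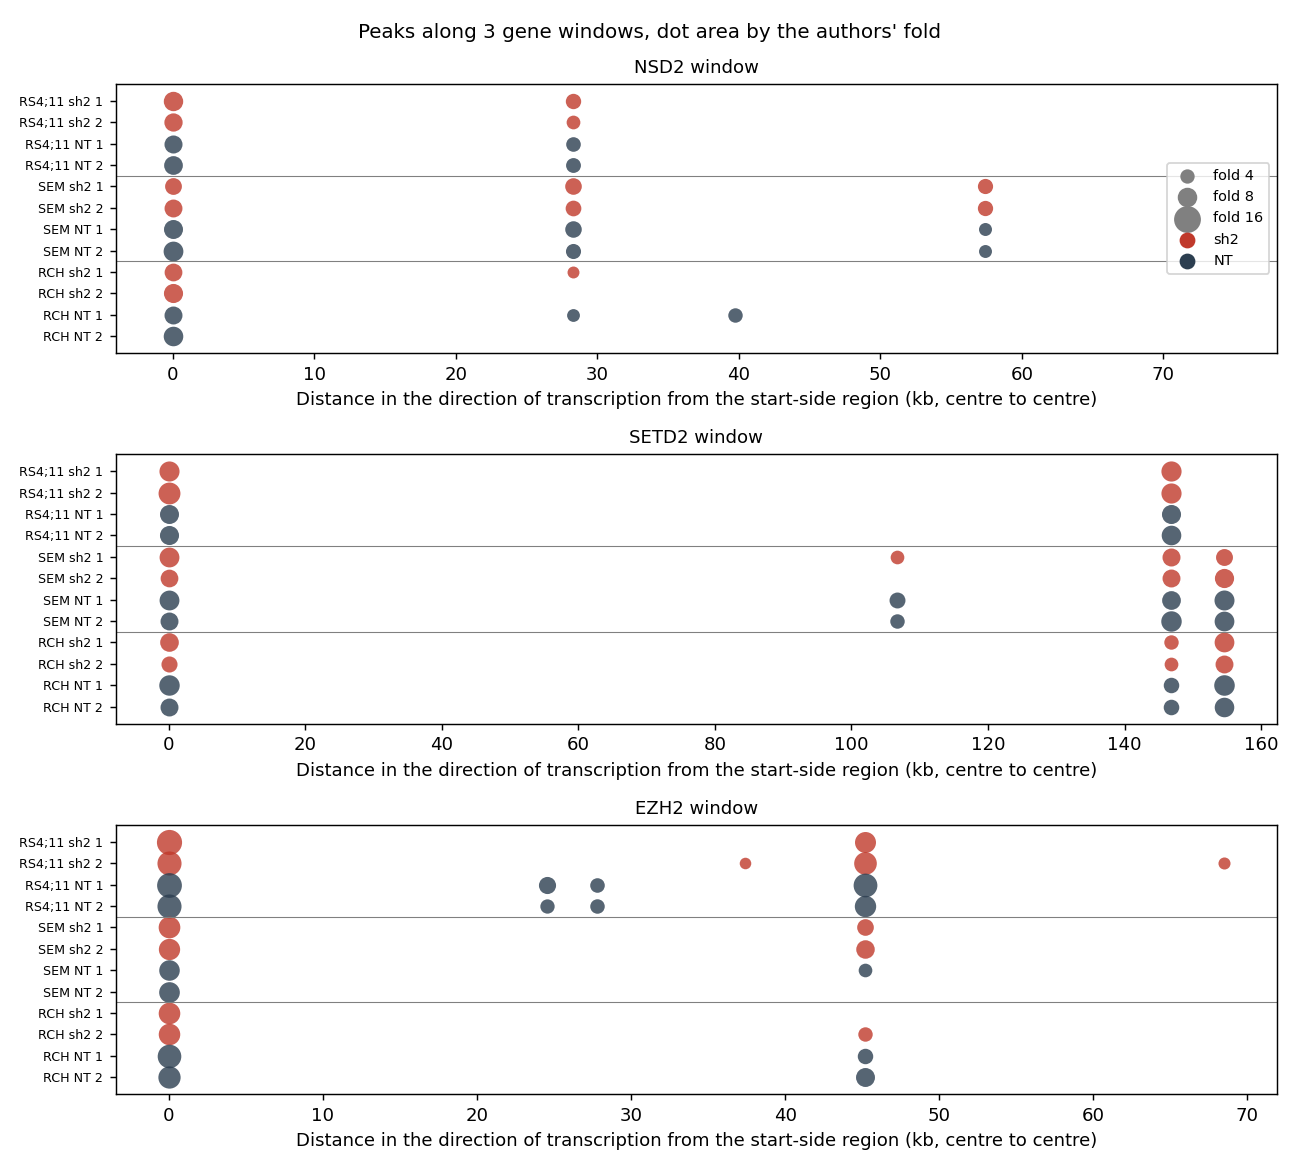
Peaks along the NSD2, SETD2 and EZH2 windows by distance (kb) in the direction of transcription from the start side region, 1 row per library (sh2 above NT in each line), with 1 dot for each region and library, its area in proportion to the highest fold there. The start side regions are open in all 12 libraries, the NSD2 region at 57.4 kb is in SEM rows only, and the last SETD2 region has no dot in RS4;11.

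EED, the reader subunit, had 1 constitutive region, chr11:85955372-85956666, with folds of 12.6 and 12.4 in sh2 and 12 and 11.5 in NT RS4;11, 11.5 and 9.20 in sh2 and 11.0 and 11.5 in NT SEM, and 10.4 and 12.3 in sh2 and 11.3 and 9.73 in NT RCH. Both RS4;11 sh2 folds lay above NT, and the conditions overlapped in SEM and RCH. Its mean percentile was 85.6, and its upstream sequence was the poorest in CpG of those printed above. The window of SUZ12, the scaffold, held 2 regions, both open in all 12 lists. Region 2, 70.6 kb downstream, lay on the side of LOC124903972 and LRRC37B in the RefSeq order, and its gene was not assigned. The start side one, chr17:30263629-30264553, had folds of 5.68 and 7.24 in sh2 and 4.85 and 4.31 in NT RS4;11, 7.45 and 9 in sh2 and 10.5 and 9.89 in NT SEM, and 7.61 and 5.32 in sh2 and 6.49 and 6.81 in NT RCH. Here sh2 lay above NT in RS4;11 and below it in SEM, and the conditions overlapped in RCH. The other, chr17:30334175-30335286, had folds of 9.54 and 8.59 in sh2 and 10.6 and 10.9 in NT RS4;11, 10.7 and 8.71 in sh2 and 9.58 and 8.33 in NT SEM, and 8.26 and 10.5 in sh2 and 10.7 and 8.33 in NT RCH, with sh2 below NT in RS4;11 and overlap in the other lines.

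**Figure D3:**
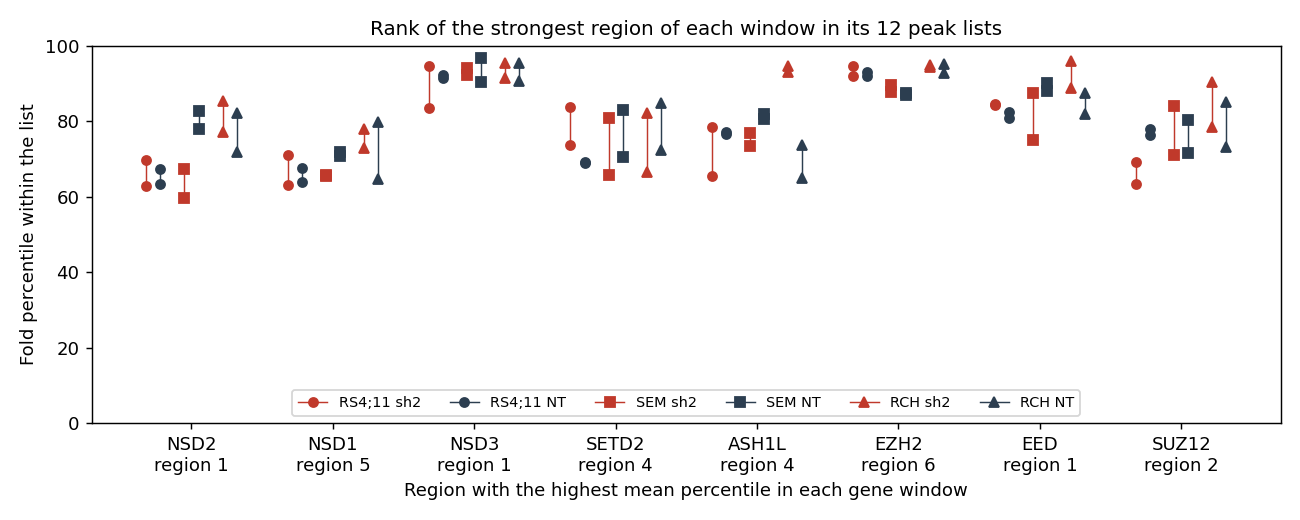
Percentile of the fold within the list, for the highest ranked region of each window in the 12 libraries, with lines shown by marker and conditions by colour (sh2 left of NT). Mean percentiles were 92.5 for NSD3, 91.8 for EZH2 and 72.3 for NSD2, and percentiles from lists of unequal length are not comparable.

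Knockdown of NSD2 was compared with its control in each line by the regions open in only 1 condition. NT-only means a peak in both NT lists and no sh2 list of the line, sh2-only the reverse. In RS4;11, 18 of 23 window regions (78.3%) were open in all 4 lists, against 48.2% of all regions of the line. NT-only regions numbered 2 (8.70%), against a background of 9.68%, and sh2-only regions 0, against 0.879%. In SEM, 19 of 28 window regions (67.9%) were open in all 4 lists, against 47.1%. NT-only regions numbered 0, against 2.61%, and sh2-only regions 1 (3.57%), against 7.65%. In RCH, 18 of 26 window regions (69.2%) were open in all 4 lists, against 37.1%, and neither class had a member, against 10.5% for NT-only and 1.92% for sh2-only. A difference of this kind in at least 2 lines was seen in 0 window regions, against 1.08% of all regions for NT-only and 0.0902% for sh2-only.

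Both NT-only regions of RS4;11 lay at EZH2, at chr7:148553432-148553722 with folds of 5.43 and 5.37 and at chr7:148556631-148556932 with folds of 7.50 and 5.24 in the NT lists. They were open in no other list of the series, as were 3.02% of all regions. The sh2-only region of SEM was ASH1L region 1, chr1:155433728-155434003, with sh2 folds of 3.75 and 6.66. Among peaks above a fold of 6.37, neither EZH2 region counted as NT-only. With lists cut to equal length in each line, the EZH2 regions remained NT-only, 2 of 21 window regions (9.52%) against 5156 of 81589 regions in RS4;11. The ASH1L region was no longer counted, with 0 of 27 sh2-only window regions against 4465 of 74354 regions in SEM. Within NSD3 regions 1 and 6, 2 stretches of RCH became sh2-only (chr8:38125996-38126249 and chr8:38240182-38240680). These were 2 of 24 window regions (8.33%), against 3183 of 62044 regions in RCH. As deposited, both RCH NT lists held a peak in region 6, with folds of 4.70 and 3.84, and the cut removed them.

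**Figure D4:**
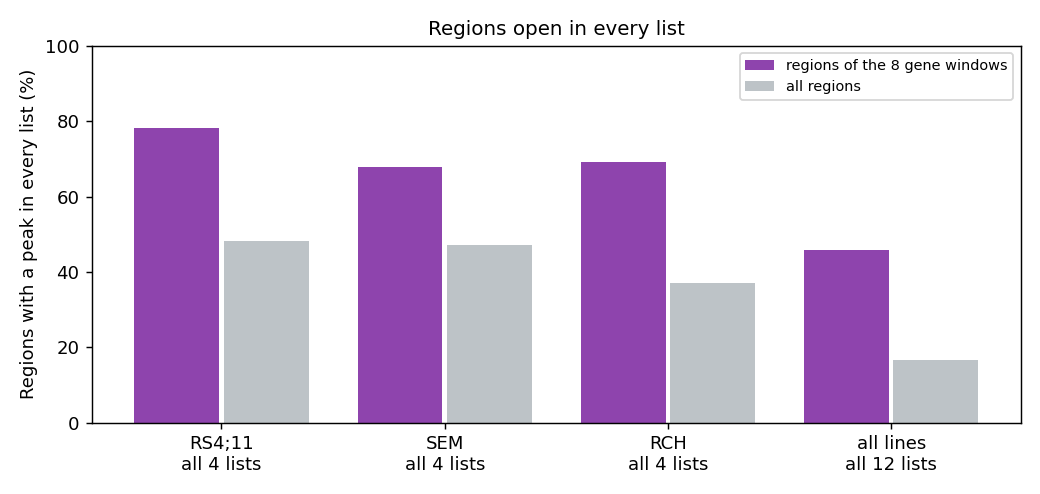
Share of regions (%) open in every list, for the regions of the 8 windows and for all regions, by line (all 4 lists) and over all lines (all 12 lists), at an overlap of at least 1 bp. Shares are 78.3% against 48.2% in RS4;11, 67.9% against 47.1% in SEM, 69.2% against 37.1% in RCH and 45.7% against 16.5% over all lines.

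The number of window peaks differed less between the conditions than the length of the lists. In RS4;11 they averaged 21 ± 1.41 in sh2 and 21 ± 0 in NT, in SEM 23.5 ± 0.707 in sh2 and 24 ± 2.83 in NT, and in RCH 22 ± 0 in sh2 and 24 ± 1.41 in NT (SD, n = 2 libraries each). Relative to NT, the number of all peaks differed in sh2 by -21.4% in RS4;11, 16.1% in SEM and -24.4% in RCH, against 0%, -2.08% and -8.33% for window peaks. The log2 ratio of window peaks, sh2 over NT, averaged -0.05 ± 0.07 (SD over 3 lines; p = 0.5 by an exact permutation test that flips signs, two-sided), and that of their share of the list 0.12 ± 0.32 (p = 0.5 by the same exact permutation test). The sign of the first turned to 0.092 with windows widened by 20 kb and to 0.0566 with lists of equal length within a line, so it has no stable direction. With 3 lines the smallest p this test can give is 0.25, so it could not pass 0.05, and a change in the number of window peaks was not detectable.

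The windows' share of the list was higher in the condition with the shorter lists. It was 0.0336% ± 0.00156 in sh2 and 0.0265% ± 0.00249 in NT RS4;11, 0.0372% ± 0.000314 in sh2 and 0.0441% ± 0.00590 in NT SEM, and 0.0513% ± 0.00224 in sh2 and 0.0423% ± 0.00279 in NT RCH (SD, n = 2 libraries each). The libraries of the conditions did not overlap in any line, higher in sh2 in RS4;11 and RCH and lower in SEM. The length covered by window peaks was 13.3 ± 0.222 kb in sh2 and 15.2 ± 0.314 kb in NT RS4;11, again without overlap, whereas in SEM (16.8 ± 1.24 kb in sh2, 17.3 ± 1.28 kb in NT) and RCH (12.9 ± 1.21 kb in sh2, 12.4 ± 0.140 kb in NT) the libraries overlapped. The length covered by all peaks of a list was not computed, so these lengths have no background to be read against.

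**Figure D5:**
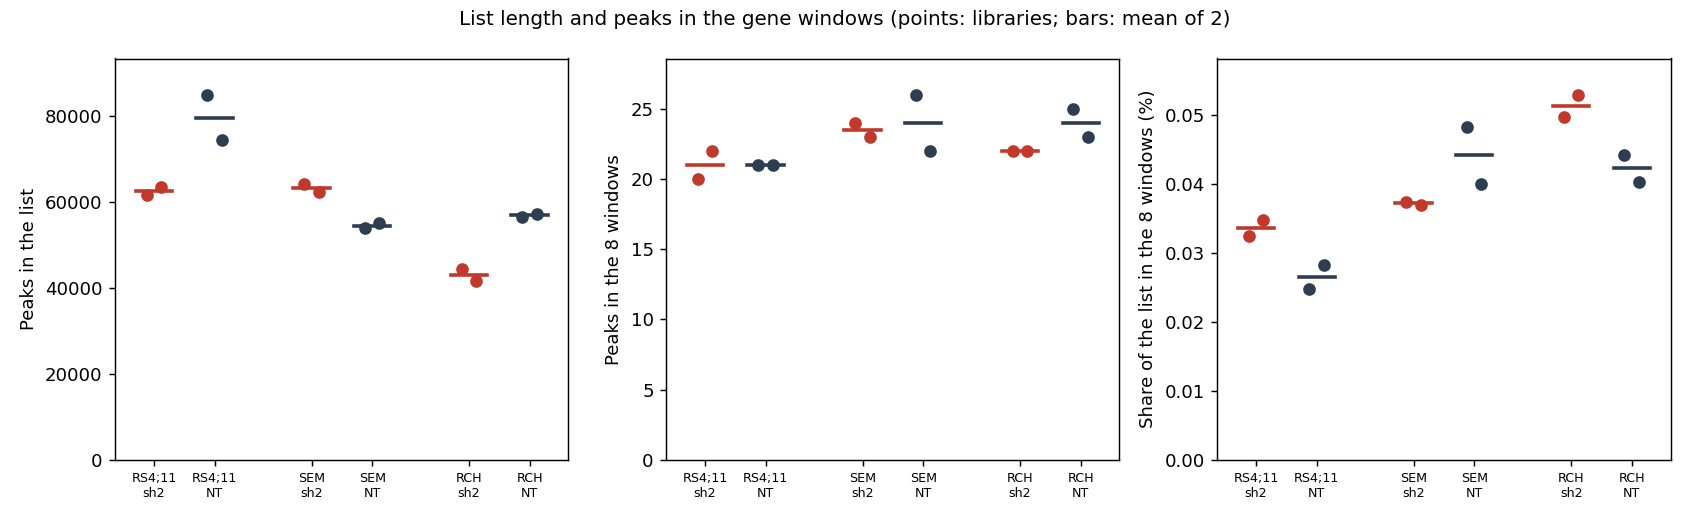
Peaks in the list, peaks in the 8 windows and their share of the list (%) for each library (points; bars show the mean of 2), sh2 left of NT in each line. Against NT, sh2 lists differ in length by -21.4% for RS4;11, 16.1% for SEM and -24.4% for RCH, while window peaks differ by 0%, -2.08% and -8.33%.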

How the data were processed

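Nextera tagmentation of nuclei was followed by PCR with barcoded primers, per the labels' protocols. Alignment and peak calling used Bowtie2 and MACS2 on hg19, per the submitters' processing notes. For versions, settings, duplicate removal and read numbers, the sources used here give nothing. The value the authors deposited with each peak was read, from its range, as a fold enrichment, a ratio not normalized between lists, and served to describe peaks and rank them within a list. Both lists of a sample appear to have been called separately.

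Peaks off chromosomes 1 to 22 and X, 140 in all, were dropped. Touching or overlapping peaks of the 12 lists were merged into regions (for per-line counts, those of the line's 4 lists). A list counted as open where at least 1 bp overlapped. A percentile is the rank of a fold among the list's peaks, and coordinates are 1-based. Lines, named in the titles, pair the sh2 and NT samples, and a sample is the mean of its 2 libraries. By rule, the named regions were the highest ranked of each window and every region open in only 1 condition of a line. The others described were chosen after their values were seen. The genes, windows and lists were chosen with earlier results of these data known. Other genes of the pathway were not analysed here, for want of an hg19 annotation. Python 3.11.15, pandas 2.3.3, scipy 1.17.1 and bedtools 2.31.1 were used. The merging, the NT-only and sh2-only counts and the permutation test were checked on simulated or set values, and the other steps were not. Alternatives were a stricter fold, equal list lengths, wider windows, 50% coverage and leaving out each library or line.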

Additional observations from a re-analysis of the deposited data

Results flagged for a closer look

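The windows' share of the list moved in opposite directions in the lines. On the log2 scale the ratio of shares between sh2 and NT came to 0.34 for RS4;11, -0.25 for SEM and 0.28 for RCH, with both sh2 libraries on 1 side of both NT libraries in each line. The difference between the lines was not tested. List length moved with it, at 62472 peaks in sh2 and 79519 in NT RS4;11, 63233 in sh2 and 54455 in NT SEM, and 42919 in sh2 and 56800 in NT RCH, and its part in the result was not tested. The share of all peaks in regions open in all 12 lists moved the same way in each line. The pattern is thus not particular to the windows.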

How the results depend on the processing

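Of 133 values recomputed under alternatives, 107 kept their direction or stayed within 1.5 times, 24 moved and 2 changed sign, and 0 of 33 p-values fell below 0.05. With 3 lines none of these permutation tests, paired or not, could reach 0.05, so the count of p-values carries no weight. The mean log2 ratio of window peaks, sh2 over NT, became 0.092 (p = 0.25, exact permutation test) with windows widened by 20 kb and 0.0566 (p = 0.75, exact permutation test) with lists of equal length within a line. Without the pairing of lines (no replicate block) the values were unchanged, -0.05 (p = 0.6) for window peaks and 0.12 (p = 0.7) for their share, in exact permutation tests. With only peaks above a fold of 6.37, 9 of 21 window regions were open in all 12 lists (16 of 35 as deposited). Of these 21, 5 were open in 1 line only (15 of 35 as deposited). That setting gave 0 NT-only regions in RS4;11 and 2 in RCH. Wider windows gave 2 sh2-only regions each for RS4;11 and SEM, 4 for RCH, and 1 NT-only region for RCH. Equal lists gave 0 sh2-only regions in SEM, 2 in RCH and, over all 12 lists, 6 regions open in 1 line only. A list counted as open by 50% coverage left 8 regions open throughout. Leaving out each library in turn gave 0 to 2 sh2-only regions in RS4;11 (2 without sh2 library 1), 0 to 2 NT-only (1 without sh2 library 1 or NT library 1, 2 without NT library 2) and 1 to 2 sh2-only regions in SEM (2 without either sh2 library or NT library 1), and 0 to 2 NT-only (1 without sh2 library 2 or NT library 1, 2 without NT library 2) and 0 to 1 sh2-only regions in RCH (1 without either sh2 library). The cause of these moves was not tested. For the NT-only and sh2-only counts with wider windows, a stricter fold or a library left out, the share over all regions was not computed. Nor was it computed for regions open in 1 line only with a stricter fold or equal lists. These counts thus have no background to be read against. With few regions in each count and unknown read depth, small differences in presence are not detectable.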
